A study of Homo sapiens with 9 samples.

Results

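Gene expression was compared by RNA sequencing between cells expressing STBD1 W203C and cells expressing STBD1 WT, all of the human colon carcinoma line HCT116. The comparison rested on 6 of the 9 libraries of the series, the 3 titled STBD1 W203C and the 3 titled STBD1 WT, which were chosen by sample title alone. The other 3 libraries, from cells with the empty vector (plvx neo), are given only for context. According to the methods of the study, all cells carried a short hairpin RNA against STBD1 (shSTBD1), both constructs were made resistant to that hairpin, and both were introduced by lentivirus and kept under drug selection. Neither the methods nor the labels name more than 1 stable line per construct, so the construct and the line cannot be told apart. The methods call the replicates biological but neither they nor the labels name separate cultures, and p-values measure only the spread between these libraries. The names of the deposited tables, and the per-library levels that the study lists under each construct, place WT and W203C the other way round from the sample titles. The titles were followed here. Every direction holds for the libraries as labelled, and exchanging the labels would turn every direction.

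STBD1 (starch-binding domain-containing protein 1) is a membrane-anchored protein that binds glycogen and, through a short LC3-interacting region (LIR), autophagy proteins of the ATG8 family such as GABARAPL1. It has been proposed as a receptor that brings glycogen to the lysosome. The tryptophan that W203C replaces belongs to this LIR, and the aromatic residue of such a region is needed for the contact with ATG8 proteins. The comparison therefore addresses which genes differ when the re-expressed protein has a cysteine there.

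The codon that defines the comparison lies at chr4:76309530-76309532 of hg38 on the plus strand, in exon 2 of STBD1, within a coding sequence of 358 residues. The reference bases at chr4:76309500-76309562 follow, with the codon of that tryptophan in capitals.
STBD1: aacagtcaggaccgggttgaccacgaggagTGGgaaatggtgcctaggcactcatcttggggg
The gene tables hold levels per gene and no bases, so the construct in each library could not be read from them.

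STBD1 itself differed slightly between the groups. Its level in TPM (a level scaled for transcript length and library size) was 8.75, 8.37 and 10.3 in replicates 1 to 3 labelled STBD1 W203C and 10.8, 10.8 and 10.9 in those labelled STBD1 WT. The read-through gene FAM47E-STBD1, which shares exons with STBD1, stood at 34.7, 38.4 and 37.6 TPM against 41.5, 43.6 and 46.1 TPM, in the same order. Neither gene overlapped between the constructs. The 2 genes summed to 46.1 ± 2.30 TPM (SD, n = 3) in the libraries labelled STBD1 W203C, to 54.6 ± 2.39 TPM in those labelled STBD1 WT and to 4.85 ± 0.751 TPM in plvx neo. Between the constructs the sums differed with p = 0.1 in a two-sided exact permutation test, the smallest value that 3 against 3 libraries allow. The log2 fold change of labelled STBD1 W203C over labelled STBD1 WT was -0.28 for STBD1 (SE 0.0772, Benjamini-Hochberg adjusted p = 0.00945 in the quasi-likelihood test of edgeR, which also gave the other adjusted p values here unless limma is named). This call was lost when STBD1 W203C replicate 1 or replicate 2 was left out (adjusted p = 0.051 and 0.0712 by edgeR). FAM47E-STBD1 (log2 fold change -0.27, SE 0.0575) kept its call in each of these fits and by DESeq2 and limma.

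Total expected counts ranged from 16.9 to 23.3 M (M, mega) per library labelled STBD1 WT and from 17.3 to 18.7 M per library labelled STBD1 W203C. Of 15052 genes tested, 4202 (27.9%) had a Benjamini-Hochberg adjusted p below 0.05 in the edgeR quasi-likelihood test and were called changed. In the libraries labelled STBD1 W203C, 14.5% of all genes tested were higher and 13.4% were lower, which is the background for the counts of each gene group. Most changes were small, with a median absolute log2 fold change of 0.25 among changed genes, and the biological coefficient of variation between replicates was 4.05%. The 471 genes (3.13%) that changed by at least 1.5 times were mostly lower, 422 against 49 higher. For 41.3% of the genes tested the groups were separate in CPM (counts scaled for library size). Genes that changed by at least 1.5 times were mostly at low levels. Their median was 3.87 CPM for the 422 lower and 1.97 CPM for the 49 higher, against 16.3 CPM in genes that did not change. On log2(TPM + 1), limma-trend tested the 13858 genes that averaged at least 1 TPM and called 1779. Of these calls 69.8% were higher, against 51.8% by edgeR on counts. As shares of the genes that limma-trend tested, 8.96% were higher and 3.88% lower. List members below 1 TPM were left out, so its counts rest on fewer members in some lists.

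The direction of change went with base composition. The median GC content of the transcripts was 46.4% in genes that were higher, 54.7% in genes that were lower and 48.2% in genes that did not change. A fit corrected for GC content and transcript length called 4334 genes, 2505 higher (16.6% of genes tested) and 1829 lower (12.2%). Its counts are given beside each main gene group, and these shares are their background.

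The cells were checked against markers of their type. Of 10 colon epithelial markers 9 passed the filter on low counts, 6 were lower, 1, EPCAM, was higher, and KRT8 and KRT18 did not pass the test. Their summed level was 3577 to 3850 TPM in the libraries labelled STBD1 W203C and 3921 to 4048 TPM in those labelled STBD1 WT. Of 9 fibroblast markers COL1A1 alone passed the filter, while DCN, LUM and POSTN were at 0 TPM in all 6 libraries. Of 10 leukocyte markers CD68 and ITGAM passed it and PTPRC was at 0 TPM in all 6 libraries, and of 7 endothelial markers VWF passed it and CLEC14A was at 0 TPM in all 6. CD68, chosen after its values were seen, was 1.33, 1.69 and 2.01 TPM against 3.86, 5.35 and 6.47 TPM, without overlap. It shares its position with another gene model, so its level is uncertain. Of the leukocyte markers below the filter, CD14 went the other way without overlap, at 0.42 to 0.69 TPM against 0.10 to 0.21 TPM. CD79A was 0.17 to 0.37 TPM against 0 to 0.18 TPM. CD3D was 0 TPM in the libraries labelled STBD1 W203C and 0 to 3.42 TPM in those labelled STBD1 WT. The summed levels were 12.8 to 18.4 TPM against 16.8 to 21.98 TPM for fibroblast, 2.55 to 4.87 TPM against 5.62 to 11.7 TPM for leukocyte and 0.10 to 0.23 TPM against 0.20 to 0.47 TPM for endothelial markers.

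Single genes were ranked where they changed, averaged 5 CPM or more and did not overlap in CPM between the groups. There the largest rises included NR4A3 and SIK1, which cAMP signalling induces in many cells, and the amino acid synthesis genes ASNS and PSAT1, whereas the decoy receptor gene TNFRSF6B fell most. NR4A3, an orphan nuclear receptor, stood at 8.74, 7.07 and 8.19 TPM in the libraries labelled STBD1 W203C and at 3.81, 3.48 and 4.30 TPM in those labelled STBD1 WT. All 3 values were above the other 3, a 2.13-fold difference (log2 fold change 1.09, SE 0.0874, adjusted p = 1.38e-08 by edgeR). SIK1, a kinase that restrains CREB coactivators, was 31.2, 26.4 and 25.99 TPM against 13.1, 16.01 and 16.8 TPM, a 1.77-fold difference. The gene model ENSG00000275993, also among the 6 largest rises of that ranking at 19.2, 18.99 and 19.5 TPM against 10.7, 12.3 and 9.19 TPM, is annotated as an artifact and shares 87.2% of the 31-base words of the SIK1 transcripts. Reads of the 2 genes can therefore not be separated with certainty.

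ASNS, asparagine synthetase, was 129, 124 and 153 TPM in the libraries labelled STBD1 W203C and 77.1, 77.99 and 74.3 TPM in those labelled STBD1 WT. PSAT1, an enzyme of serine synthesis, was 96.5, 103 and 127 TPM against 65.5, 63.2 and 65.96 TPM. Both separated the groups, with 1.80-fold and 1.64-fold differences, and both had higher means in plvx neo, 198 and 159.9 TPM. SENP3-EIF4A1, a read-through gene that overlaps SENP3 and EIF4A1, was 2.46, 1.75 and 3.48 TPM against 1.26, 1.59 and 1.61 TPM, and its call was lost without STBD1 W203C replicate 3 and by limma-trend on log2(TPM + 1) (Benjamini-Hochberg adjusted p = 0.146).

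TNFRSF6B, a secreted decoy receptor for death ligands, was 34.1, 31.6 and 26.3 TPM in the libraries labelled STBD1 W203C and 98.1, 91.8 and 93.8 TPM in those labelled STBD1 WT. The groups stood 3.14-fold apart (log2 fold change -1.65, SE 0.0678, adjusted p = 2.89e-13 by edgeR), although the gene shares its position with RTEL1-TNFRSF6B. TNFRSF9, a costimulatory receptor of the same family, was 1.10, 0.750 and 0.550 TPM against 1.94, 2.65 and 4.27 TPM, with 0.03, 0.05 and 0.03 TPM in plvx neo. ANGPTL4, a secreted inhibitor of lipoprotein lipase, was 8.97, 12.3 and 11.7 TPM against 30.5, 22.3 and 27.5 TPM. DEPP1, a target of FOXO factors, was 1.85, 1.68 and 1.58 TPM against 4.21, 4.61 and 5.72 TPM. The libraries labelled STBD1 W203C were below every library labelled STBD1 WT in each of these genes. The same held for the noncoding LINC03040 and ENSG00000252690, which overlap other genes and fell by 1.45 and 1.55 on the log2 scale.

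**Figure D1:**
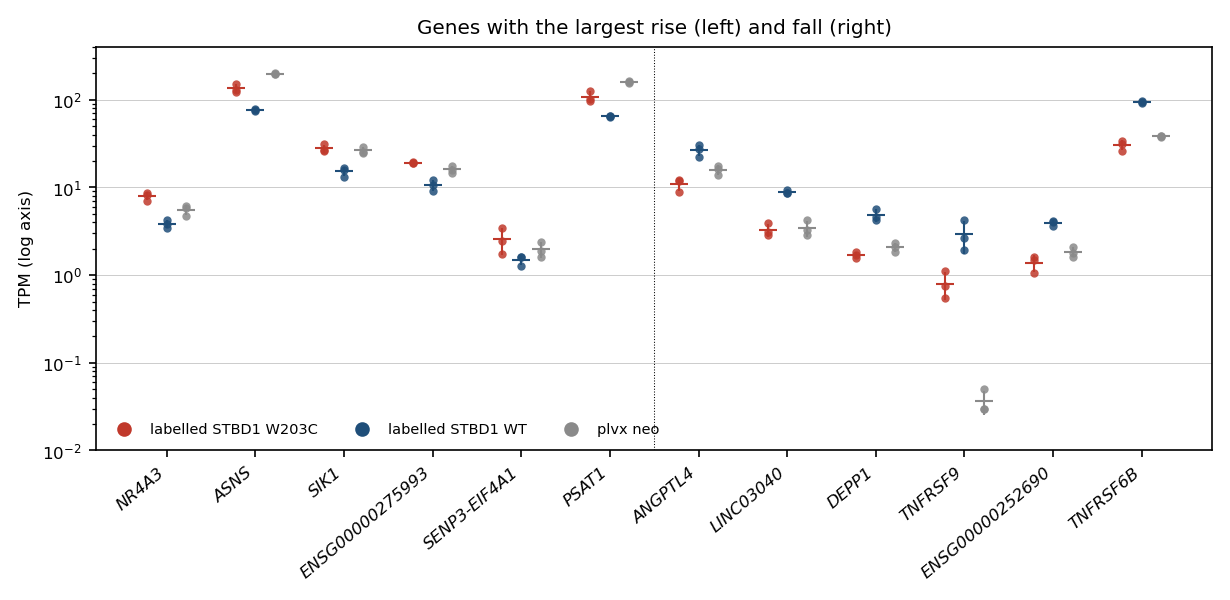
TPM on a log axis of the 6 genes with the largest rise (left of the dotted line) and the 6 with the largest fall (right), ranked over changed genes that averaged 5 CPM or more and whose CPM did not overlap, in the libraries labelled STBD1 W203C against those labelled STBD1 WT. Points are the 3 libraries of each group, bars the mean and SD, and plvx neo is added for context. The red and blue points do not overlap in any of the 12 genes, and TNFRSF9 is lowest in plvx neo.

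The genes were then followed in lists by function, each described by how many tested members were called and by its median log2 fold change, beside a median of -0.0078 over all genes tested. In the plot of all members, most sterol, matrix and hypoxia-inducible genes lay to the left of 0, replication and amino acid response genes mostly to the right, and immediate-early genes on both sides.

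**Figure D2:**
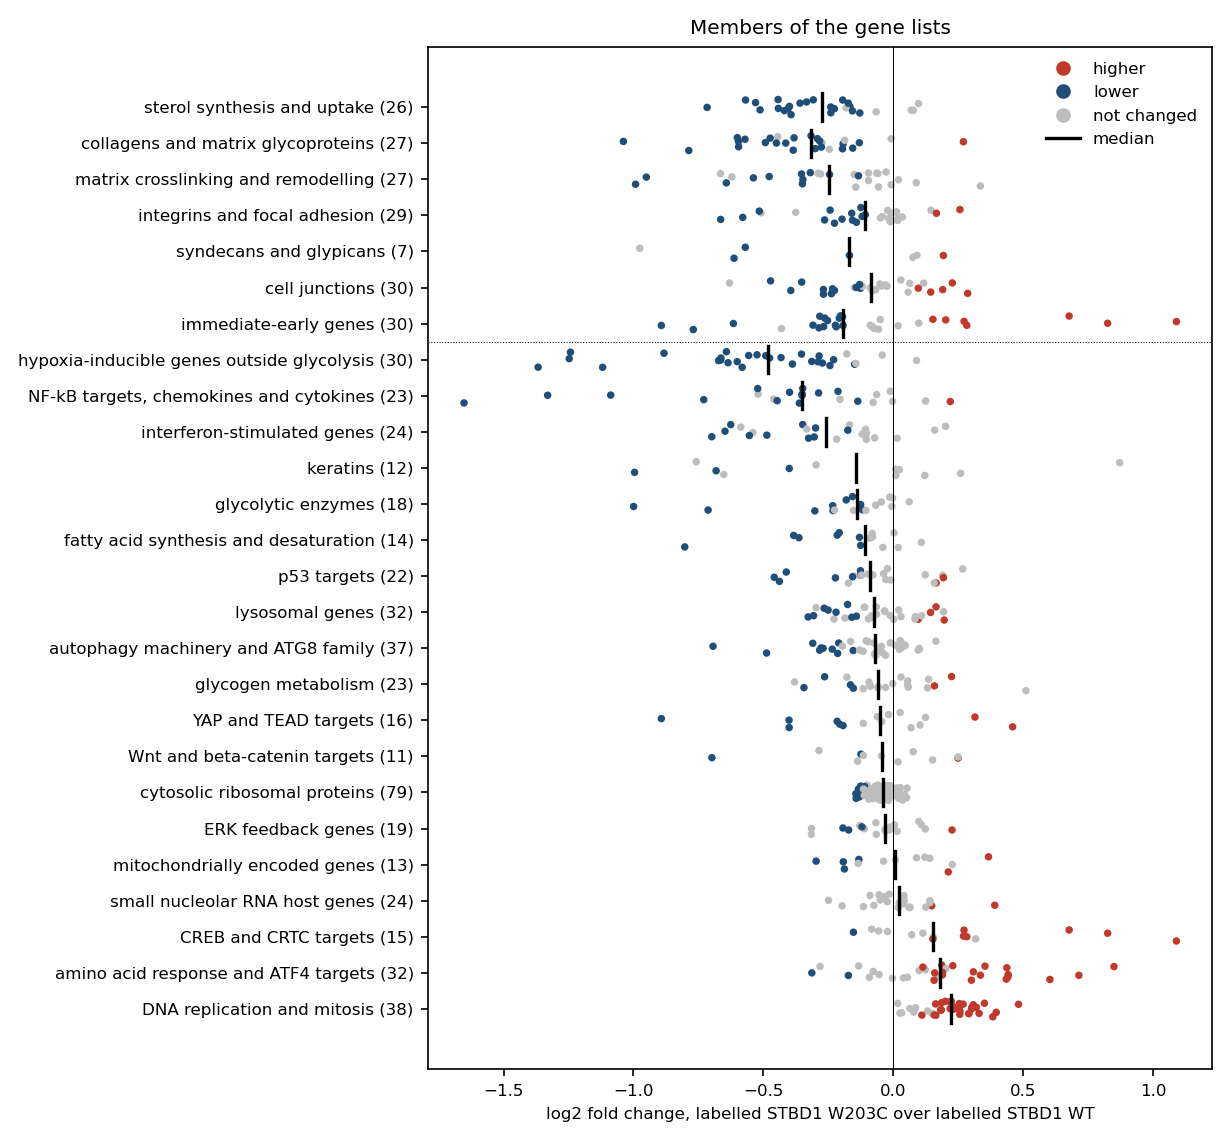
Log2 fold change, labelled STBD1 W203C over labelled STBD1 WT, of each tested member (point) of each list, with the number tested in brackets. Red points were higher and blue points lower by edgeR, grey points did not pass, and black bars mark list medians, from -0.48 for hypoxia-inducible genes to 0.22 for DNA replication and mitosis genes.

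Genes of cholesterol synthesis and uptake were mostly lower in the libraries labelled STBD1 W203C. The transcription factor SREBF2 switches these genes on when sterols are scarce, SCAP carries that factor out of the endoplasmic reticulum, and INSIG1 holds it back. Of 26 members, all tested, 21 were lower and 5 did not pass, against a background of 13.4% lower, with a median log2 fold change of -0.27. CPM did not overlap between the groups for 24 of them, against 41.3% of all genes. With the correction for GC content and length 21 were lower and 1, SCAP, was higher, and the median was -0.27. On log2(TPM + 1), limma-trend called 13 lower.

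INSIG1 showed the largest difference of the list, at 49.3, 54.4 and 45.4 TPM against 75.8, 78.5 and 80.7 TPM (log2 fold change -0.72, SE 0.0429, adjusted p = 1.90e-10 by edgeR). HMGCS1, which makes HMG-CoA, was 67.1, 70.8 and 66.5 TPM against 95.99, 96.3 and 95.8 TPM. In both genes the highest library labelled STBD1 W203C stayed below the lowest labelled STBD1 WT, and the plvx neo means were 46.6 and 51.5 TPM. MSMO1, a sterol demethylase, was 44.3, 48.9 and 45.8 TPM against 70.6, 62.1 and 62.6 TPM. MVD, mevalonate decarboxylase, was 129.7, 125 and 128 TPM against 169, 169 and 162 TPM. STARD4, a sterol carrier, and TM7SF2, a sterol reductase whose gene overlaps VPS51, fell by 0.44 (SE 0.0637) and 0.51 (SE 0.0675) on the log2 scale without overlap of their TPM. Of 86 changed genes among the 88 named by rule, 12 overlapped between the groups in TPM and 1 in CPM. The rule took genes for their change on these same counts, and the largest rises and falls for separate CPM. Few overlaps in CPM were therefore built into the choice.

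SREBF2 itself had 79.7, 75.6 and 70.3 TPM against 92.9, 94.8 and 92.04 TPM (log2 fold change -0.31, SE 0.0376), with no overlap, and was chosen for display after its values were seen. Its promoter is shown because no other of the 19 sterol gene promoters in the RefSeq table held the sterol element TCACNCCAC on either strand. That is a share of 5.26%, against 1.15% of all 27305 promoters and 1.05% of those of tested genes. The element was also found in 1 of 22 promoters of immediate-early genes (4.55%) and 1 of 25 of hypoxia-inducible genes (4%). The share was therefore not particular to sterol genes. The window runs from 250 bases before the start, over 300 bases, at chr22:41832855-41833154 of GRCh38.p14 on the plus strand, with the match in capitals.
SREBF2: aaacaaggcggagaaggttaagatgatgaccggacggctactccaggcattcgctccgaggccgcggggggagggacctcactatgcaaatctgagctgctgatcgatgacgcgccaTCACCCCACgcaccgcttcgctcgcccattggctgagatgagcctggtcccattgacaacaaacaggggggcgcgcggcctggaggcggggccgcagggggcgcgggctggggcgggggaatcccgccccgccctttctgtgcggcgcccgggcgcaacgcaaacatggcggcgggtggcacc
The match describes the letters of the window and does not show that a factor bound there.

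Genes of fatty acid synthesis, which SREBF1 governs, changed in part. Of 14 tested, 7 were lower and 7 did not pass, with a median log2 fold change of -0.11. ACSS2, which makes acetyl-CoA from acetate, was 26.8, 25.6 and 20.5 TPM against 44, 43.1 and 44.6 TPM. SCD, the stearoyl-CoA desaturase, was 408, 414 and 351 TPM against 480.3, 505 and 503 TPM. Both genes separated the groups, with log2 fold changes of -0.80 (SE 0.0544) and -0.38 (SE 0.0463). SREBF1, chosen after its values were seen, fell by 0.21 (SE 0.0357) on counts, while its TPM overlapped and limma-trend did not call it.

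Genes of the extracellular matrix were mostly lower as well. Epithelial cells secrete laminins, collagens and proteoglycans, which form the basement membrane on which they sit. Of 36 collagen and matrix glycoprotein genes 27 were tested, of which 21 were lower, 1 was higher and 5 did not pass, with a median log2 fold change of -0.32. CPM did not overlap for 24 of them, against 41.3% of all genes. With the correction for GC content and length 17 were lower and the median was -0.22, the calls of LTBP1, LTBP3, COL18A1 and COL27A1 being lost. By limma-trend on log2(TPM + 1) 8 were lower.

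LAMB3, a chain of laminin-332, was 23.3, 21.3 and 20.1 TPM against 30.8, 28.96 and 28.3 TPM (log2 fold change -0.57, SE 0.0432, adjusted p = 5.55e-09 by edgeR). LAMA3, another chain of that laminin, was 3.43, 3.44 and 3.10 TPM against 3.65, 3.62 and 4.28 TPM and was chosen after its values were seen. Both chains were separate between the groups, but the call of LAMA3 was lost by DESeq2, by limma-trend and without STBD1 WT replicate 3 or STBD1 W203C replicate 2. COL17A1, a transmembrane collagen of hemidesmosomes, was 1.88, 1.37 and 1.81 TPM against 2.54, 3.15 and 2.85 TPM. COL13A1, another transmembrane collagen, was 2.77, 3.45 and 1.77 TPM against 4.71, 4.94 and 3.90 TPM. Both were low and did not overlap, and limma-trend on log2(TPM + 1) called neither (Benjamini-Hochberg adjusted p = 0.0531 and 0.0713). HSPG2 (perlecan), COL9A3, a chain of a fibril-associated collagen, and COL4A5, a chain of basement membrane collagen, fell by 0.60 (SE 0.0580), 0.60 (SE 0.0722) and 0.60 (SE 0.0633) on the log2 scale, all without overlap of TPM. FN1 (fibronectin), chosen after its values were seen, was 3.83, 4.66 and 5.83 TPM against 7.10, 6.70 and 6.98 TPM, also without overlap. Limma-trend called neither HSPG2 nor FN1. THBS1, a thrombospondin chosen after its values were seen, was the member called higher on counts (log2 fold change 0.27, SE 0.0764). Its TPM overlapped at 5.93, 7.46 and 6.18 TPM against 5.81, 6.35 and 9.57 TPM, with means of 6.52 and 7.24 TPM in the opposite order, and its call was lost by limma-trend and without STBD1 WT replicate 2.

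Among enzymes that crosslink or cut the matrix, 27 of 30 were tested, of which 11 were lower and 16 did not pass, with a median log2 fold change of -0.25. Corrected for GC content and length, 10 were lower and 1, PLOD3, was higher, with a median of -0.19. LOXL2, a lysyl oxidase that crosslinks collagen, showed the largest difference, at 12.96, 14.4 and 13.1 TPM against 26.5, 26.2 and 23.8 TPM. The groups lay 1.99-fold apart (log2 fold change -0.99, SE 0.0662, adjusted p = 9.22e-10 by edgeR), and the gene overlaps ENTPD4 and LOXL2-AS1. MMP7, an epithelial metalloproteinase, was 1.31, 1.14 and 1.42 TPM against 2.59, 2.47 and 2.32 TPM. Its TPM did not overlap, but its call was lost by DESeq2 and without STBD1 WT replicate 1, STBD1 WT replicate 2 or STBD1 W203C replicate 2.

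PLAU, the urokinase protease, was 22.6, 22.6 and 23.6 TPM against 30.4, 30.1 and 33.4 TPM. The groups were separate, and the gene fell by 0.48 (SE 0.0586) on the log2 scale. P4HA1, a prolyl hydroxylase of collagen, was 17.8, 18.9 and 17.8 TPM against 28.7, 27.1 and 26.9 TPM. PLOD2, a lysyl hydroxylase of collagen, was 11.7, 12.7 and 10.9 TPM against 15.2, 14.2 and 15.2 TPM. Neither overlapped between the groups, with log2 fold changes of -0.64 (SE 0.0566) and -0.35 (SE 0.0604).

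P4HA1 and PLOD2 also belong to the hypoxia-inducible genes, and their promoters are shown because both hold ACGTG, the core of the hypoxia element, once in P4HA1 and at 2 places in PLOD2, counting either strand. The RefSeq windows of GRCh38.p14, of 300 bases each and on the minus strand, are chr10:73096817-73097116 and chr3:146161135-146161434, with matches in capitals.
P4HA1: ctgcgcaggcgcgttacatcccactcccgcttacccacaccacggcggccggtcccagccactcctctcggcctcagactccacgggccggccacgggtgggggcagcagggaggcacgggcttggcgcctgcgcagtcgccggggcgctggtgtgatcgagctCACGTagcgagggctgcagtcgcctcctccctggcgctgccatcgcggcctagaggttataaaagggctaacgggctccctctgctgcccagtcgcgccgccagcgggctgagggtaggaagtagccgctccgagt
PLOD2: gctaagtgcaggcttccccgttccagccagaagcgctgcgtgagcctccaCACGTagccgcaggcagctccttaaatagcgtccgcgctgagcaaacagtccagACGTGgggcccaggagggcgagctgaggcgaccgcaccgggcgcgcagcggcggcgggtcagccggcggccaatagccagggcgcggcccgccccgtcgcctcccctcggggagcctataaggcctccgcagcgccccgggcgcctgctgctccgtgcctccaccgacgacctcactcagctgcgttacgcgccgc
Of the hypoxia-inducible genes with a promoter in the table, 15 of 25 (60%) held ACGTG, against 21.6% of all promoters and 26.7% of those of tested genes. The matches describe letters and not binding.

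Integrins are pairs of an alpha and a beta chain that bind matrix outside the cell and link to actin or keratin inside it. Of 31 integrin and focal adhesion genes 29 were tested, of which 13 (44.8%) were lower, 2 (6.9%) were higher and 14 did not pass. The background was 13.4% lower and 14.5% higher, and the median log2 fold change was -0.11. After correction for GC content and length 11 were lower and 5 higher, ILK and PLEC losing their calls and TLN1, CD151 and FLNA gaining one. By limma-trend on log2(TPM + 1) 3 were lower.

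ITGA2, the alpha chain of a collagen receptor, was 7.86, 8.30 and 6.73 TPM against 10.9, 11.4 and 12.4 TPM. ITGB4, the beta chain of the hemidesmosome receptor for laminin-332, was 47.4, 55.6 and 48.5 TPM against 72.2, 71.9 and 62.9 TPM. ITGA3, the alpha chain of another laminin receptor, was 83.5, 84.7 and 79.7 TPM against 125, 115 and 118 TPM. These 3 chains separated the groups, falling by 0.66 (SE 0.0648), 0.58 (SE 0.0373) and 0.52 (SE 0.0398) on the log2 scale at adjusted p of 2.03e-07, 5.16e-10 and 6.94e-09 by edgeR. ITGA6, the partner of ITGB4, fell by 0.24 (SE 0.0401), and its TPM overlapped at 35.9, 31.9 and 29.4 TPM against 35.7, 35.05 and 37.95 TPM. ITGA5, the alpha chain of a fibronectin receptor, fell by 0.26 (SE 0.0488). Limma-trend on log2(TPM + 1) called neither ITGA6 nor ITGA5 (Benjamini-Hochberg adjusted p = 0.213 and 0.0709). ITGB1, the beta chain that many of these alpha chains share, was 194, 198 and 204 TPM against 189.7, 184 and 202 TPM and was not called (log2 fold change -0.0040, SE 0.0375, adjusted p = 0.951 by edgeR). PARVA, an adaptor of integrin adhesions, was the largest rise of the list at 6.24, 6.35 and 7.40 TPM against 5.23, 5.44 and 4.91 TPM. Its groups were separate, but its call was lost by DESeq2, by limma-trend and without STBD1 WT replicate 3 or STBD1 W203C replicate 3.

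Syndecans and glypicans are membrane proteoglycans that carry heparan sulfate. Of 10 members 7 were tested, 3 (42.9%) being lower, 1 (14.3%) higher and 3 not passing. The background was 13.4% lower and 14.5% higher, so the share that was higher was near background. Corrected for GC content and length, 2 were lower and 2 higher, SDC3 losing its call and GPC1 gaining one, and limma-trend on log2(TPM + 1) called 2 lower. SDC4, a syndecan of focal adhesions, was 68.1, 65.1 and 68.1 TPM against 101, 97.8 and 102 TPM, with a plvx neo mean of 47.6 TPM (log2 fold change -0.61, SE 0.0386, adjusted p = 4.09e-10 by edgeR). SDC1, the main epithelial syndecan, was 35.5, 35.8 and 39.1 TPM against 32.9, 31.6 and 29.9 TPM (log2 fold change 0.19, SE 0.0508). Each gene separated the groups, in opposite directions, and limma-trend on log2(TPM + 1) called SDC4 but not SDC1 (Benjamini-Hochberg adjusted p = 0.00306 and 0.055). GPC2, a glypican, was 4.38, 4.05 and 4.92 TPM against 8.15, 6.93 and 6.81 TPM and fell by 0.57 (SE 0.130) on the log2 scale. SDC3 was called lower on counts (log2 fold change -0.17, SE 0.0441), but its mean TPM was 28.5 in both groups and its call was lost with the correction for GC content and length, by limma-trend and without STBD1 WT replicate 2.

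Of 32 cell junction genes 30 were tested, of which 11 (36.7%) were lower, 5 (16.7%) higher and 14 not passing. The background was 13.4% lower and 14.5% higher, so the share that was higher was near background. The median log2 fold change was -0.084. With the correction for GC content and length 11 were lower and 4 higher, CTNNB1 and NECTIN2 losing their calls and CLDN12 gaining one, and limma-trend on log2(TPM + 1) called 4 lower and 1 higher. CLDN4, a claudin of tight junctions, was 164, 171 and 166 TPM against 212, 207 and 226 TPM. JUP (plakoglobin), which links cadherins to the cytoskeleton, was 94.4, 96.6 and 88.6 TPM against 120.3, 114 and 117 TPM. TJP3, a tight junction scaffold, was 20.7, 18.4 and 23.7 TPM against 31.3, 32.8 and 28.2 TPM. In these 3 genes no library of one group reached the other. CDH1 (E-cadherin), the adhesion receptor of adherens junctions, had 74.5, 72.4 and 66.3 CPM against 85.6, 84.5 and 86.9 CPM (log2 fold change -0.27, SE 0.0481). NECTIN1, another adhesion molecule of adherens junctions, had 53.98, 53.8 and 55.1 CPM against 43.5, 43.7 and 46.4 CPM (log2 fold change 0.29, SE 0.0529). PATJ, a polarity scaffold, fell by 0.27 (SE 0.0585) on the log2 scale. The TPM of CDH1, NECTIN1 and PATJ overlapped, and limma-trend on log2(TPM + 1) did not call them (Benjamini-Hochberg adjusted p = 0.176, 0.431 and 0.35).

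**Figure D3:**
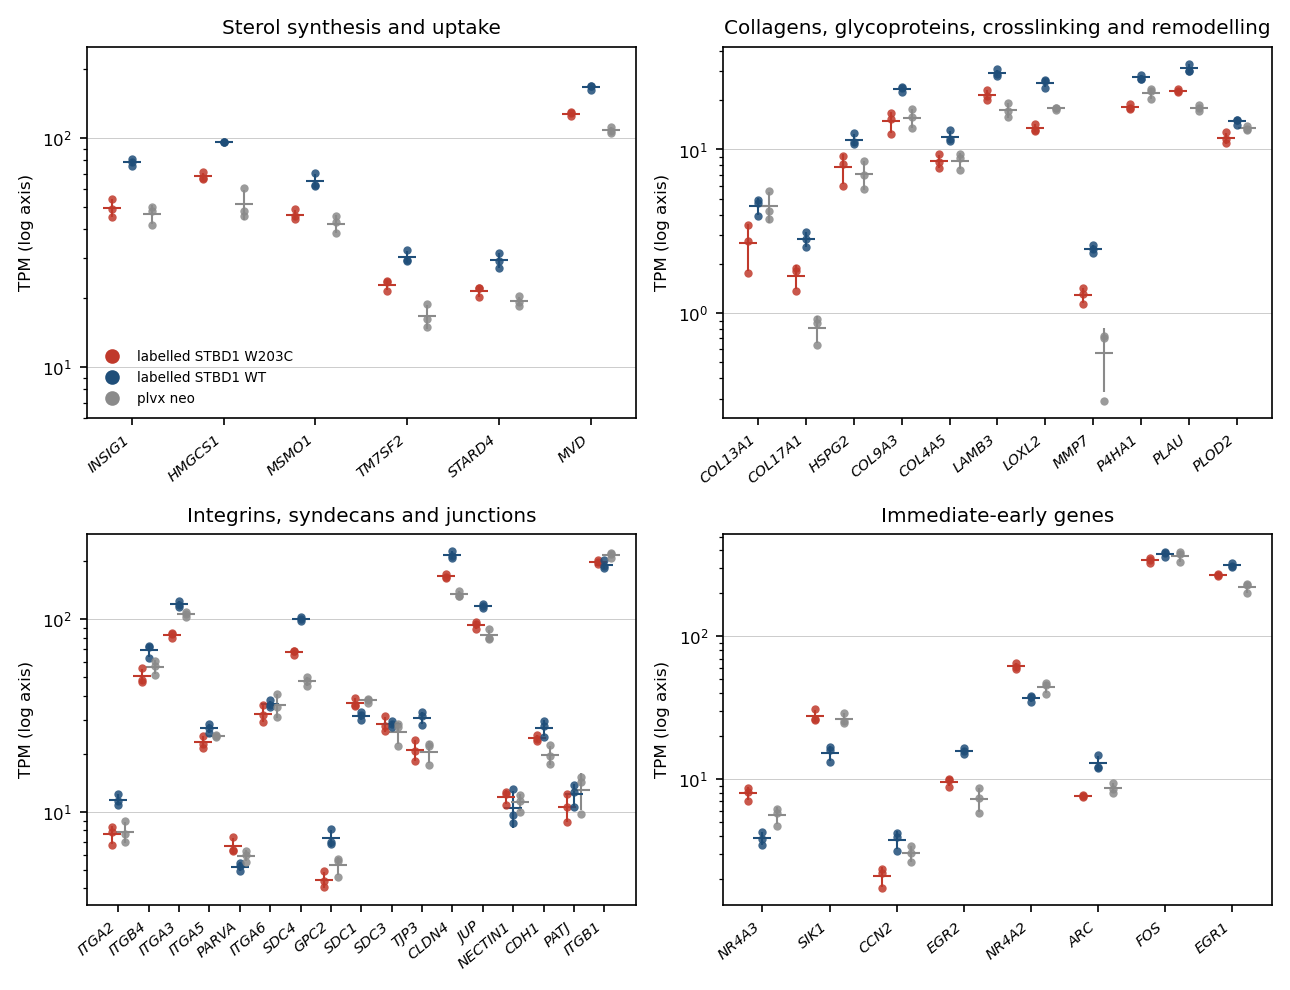
TPM on a log axis of named members of the sterol, matrix, adhesion and immediate-early lists in the 3 libraries labelled STBD1 W203C (red), the 3 labelled STBD1 WT (blue) and the 3 plvx neo libraries (grey), with mean and SD. Red lies below blue in each sterol and matrix gene shown and above it in NR4A3, SIK1, NR4A2, SDC1 and PARVA, while red and blue overlap in ITGB1, ITGA6, SDC3, NECTIN1, CDH1 and PATJ.

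Immediate-early genes, which are transcribed soon after a stimulus without new protein synthesis, split in 2 directions. Of 30 members, all tested, 15 were lower, 7 higher and 8 did not pass, with a median log2 fold change of -0.19. CPM did not overlap for 23 of them, against 41.3% of all genes. With the correction for GC content and length 13 were lower and 8 higher, with a median of -0.11, KLF2 and JUND losing their calls and FOSL1 gaining one. The 7 higher members were NR4A1, NR4A2, NR4A3, SIK1, DUSP1, EGR3 and FOSB. Subunits of AP-1 were divided, with FOSB higher, JUN, JUNB and JUND lower, and FOS, FOSL1 and FOSL2 not passing.

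NR4A2, an orphan nuclear receptor, was 65.02, 61.4 and 58.9 TPM against 34.7, 38.5 and 37.5 TPM (log2 fold change 0.68, SE 0.0502, adjusted p = 4.33e-09 by edgeR). NR4A1, of the same family and chosen after its values were seen, was 306, 283 and 268 TPM against 218, 211 and 213 TPM. As with NR4A3, each library labelled STBD1 W203C was above every library labelled STBD1 WT. EGR2, a zinc finger transcription factor, was 9.94, 10.1 and 8.88 TPM against 15.8, 15.1 and 16.6 TPM. ARC, best known as an activity-induced gene of neurons, was 7.50, 7.73 and 7.68 TPM against 14.8, 12.3 and 11.9 TPM. CCN2, a matricellular growth factor, was 2.34, 2.22 and 1.73 TPM against 3.17, 4.22 and 3.95 TPM. These 3 genes separated the groups in the opposite direction, falling by 0.77 (SE 0.0657), 0.62 (SE 0.0698) and 0.89 (SE 0.160) on the log2 scale.

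EGR1, another zinc finger factor, was 269, 275 and 265 TPM against 304, 313 and 329 TPM (log2 fold change -0.26, SE 0.0366, adjusted p = 1.54e-05 by edgeR). FOS, a subunit of AP-1, was 344, 355 and 326 TPM against 360.3, 389 and 384 TPM and was not called (log2 fold change -0.079, SE 0.0383, adjusted p = 0.131 by edgeR), although its TPM did not overlap. Of 15 tested targets and components of CREB and its CRTC coactivators 7 were higher, 1, PER1, was lower and 7 did not pass, with a median log2 fold change of 0.15. Of the higher ones, 6 are also in the immediate-early list, so the lists are not independent, and the other is PDE4B, a phosphodiesterase that breaks down cAMP.

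The cAMP element TGACGTCA, to which CREB binds, was found on either strand in 2 of 22 promoters of immediate-early genes (9.09%), DUSP1 and JUND, against 1.98% of all promoters and 3.29% of those of tested genes. The promoters are shown because these genes differed in direction, and both were chosen after their values were seen. DUSP1, a phosphatase of MAP kinases, was 86.01, 86.2 and 88.8 TPM against 65.3, 69.9 and 75.7 TPM. JUND was 203.3, 211 and 213 TPM against 253, 240.2 and 231 TPM. Both separated the groups, and the call of JUND was lost with the correction for GC content and length (adjusted p = 0.0756 by edgeR). The RefSeq windows of 300 bases are chr5:172771146-172771445 and chr19:18281573-18281872 of GRCh38.p14, both on the minus strand, with the element in capitals.
DUSP1: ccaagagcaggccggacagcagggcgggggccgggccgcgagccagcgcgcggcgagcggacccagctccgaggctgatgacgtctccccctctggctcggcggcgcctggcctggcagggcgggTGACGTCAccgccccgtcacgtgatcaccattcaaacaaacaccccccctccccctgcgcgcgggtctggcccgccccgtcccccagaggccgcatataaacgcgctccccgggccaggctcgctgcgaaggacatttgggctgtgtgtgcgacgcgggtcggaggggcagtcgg
JUND: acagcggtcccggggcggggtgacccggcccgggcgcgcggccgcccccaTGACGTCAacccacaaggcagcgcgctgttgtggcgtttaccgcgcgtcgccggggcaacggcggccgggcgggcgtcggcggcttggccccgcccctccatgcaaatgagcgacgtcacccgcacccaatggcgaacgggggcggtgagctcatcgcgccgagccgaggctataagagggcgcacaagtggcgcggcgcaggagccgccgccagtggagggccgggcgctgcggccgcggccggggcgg
The AP-1 element TGACTCA was found in 1 of the 22 promoters (4.55%), against 4.92% of all promoters and 3.04% of those of tested genes.

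Genes that low oxygen induces through HIF factors had the lowest median of the main and other functional lists. Of 31 such genes outside glycolysis 30 were tested, of which 26 were lower and 4 did not pass, with a median log2 fold change of -0.48, and 27 were lower and 1, PFKFB3, was higher with the correction for GC content and length. NDRG1, a stress-induced gene, was 77.7, 83.1 and 75.7 TPM against 183, 182 and 168 TPM, and CA9, a carbonic anhydrase, was 2.65, 1.81 and 1.16 TPM against 3.31, 4.41 and 3.32 TPM. Both were separate between the groups and were chosen after their values were seen. SLC2A3, a glucose transporter, was 0.430, 1.52 and 0.570 TPM against 1.29, 2.03 and 2.53 TPM, with overlap. The calls of CA9 and SLC2A3 were lost by limma-trend. Of 18 tested glycolytic enzymes 9 were lower and 9 did not pass, with a median of -0.14. ALDOC, an aldolase, was 47.7, 47.7 and 38.9 TPM against 93.5, 91.4 and 80.4 TPM, and ENO2, an enolase, was 19.2, 22.1 and 23.98 TPM against 37.6, 32.3 and 33.6 TPM. Both enzymes were separate.

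Of 33 NF-kB targets, chemokines and cytokines 23 were tested, of which 14 were lower, 1, TRAF2, was higher and 8 did not pass, with a median log2 fold change of -0.35. TNFRSF6B belongs to this list. BIRC3, an inhibitor of apoptosis, was 4.11, 4.23 and 5.05 TPM against 10.6, 9.47 and 11.03 TPM, with a plvx neo mean of 1.04 TPM. CXCL8, a chemokine chosen after its values were seen, was 8.80, 9.07 and 7.16 TPM against 15.2, 14.1 and 11.8 TPM, with a plvx neo mean of 1.38 TPM. In both genes the libraries labelled STBD1 W203C lay between plvx neo and the libraries labelled STBD1 WT. This order did not hold for all genes. In TNFRSF6B plvx neo lay between the constructs, with a mean of 38.3 TPM. Its means also lay between those of the constructs in NR4A3 (5.60 TPM), ANGPTL4 (15.9 TPM), LOXL2 (17.8 TPM), ALDOC (57.3 TPM), ITGA3 (106 TPM) and NDRG1 (126 TPM).

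Amino acid response genes, which ATF4 induces when amino acids are short, were mostly higher. Of 32 tested 18 were higher, against a background of 14.5% higher, 2, DDIT4 and CEBPB, were lower and 12 did not pass, with a median log2 fold change of 0.18. PHGDH, the first enzyme of serine synthesis, was 144, 161 and 161 TPM against 101, 96.99 and 94.9 TPM. SLC7A11, a cystine transporter, was 6.87, 6.27 and 6.61 TPM against 5.01, 5.24 and 5.14 TPM. Both were chosen after their values were seen and separated the groups, and limma-trend did not call SLC7A11. ATF4 itself was 356, 357 and 359 TPM against 337, 341 and 335 TPM and was not called (log2 fold change 0.039, SE 0.0354, adjusted p = 0.448 by edgeR).

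Genes of DNA replication and mitosis were mostly higher in the libraries labelled STBD1 W203C. Of 38 members, all tested, 30 were higher and 8 did not pass, with a median log2 fold change of 0.22. Corrected for GC content and length, 30 were higher. CDC6, which loads the replicative helicase, was 53.1, 48.7 and 56.7 TPM against 35.95, 38.4 and 33.9 TPM. CCNE2, a cyclin of the entry into S phase, was 8.84, 8.45 and 9.86 TPM against 7.27, 6.46 and 5.66 TPM. MCM2, a subunit of that helicase, and PCNA, the sliding clamp of DNA polymerases, both chosen after their values were seen, rose by 0.35 (SE 0.0420) and 0.29 (SE 0.0412) on the log2 scale. No TPM of these 4 genes overlapped. Histone genes took 0.105% to 0.115% of counts in the libraries labelled STBD1 W203C and 0.135% to 0.140% in those labelled STBD1 WT, and their part in this result was not tested.

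The pathways in which STBD1 itself takes part were also followed. Of 23 tested genes of glycogen metabolism 4 (17.4%) were lower, 2 (8.7%), GSK3A and PYGB, were higher and 17 did not pass. The background was 13.4% lower and 14.5% higher. On log2(TPM + 1), limma-trend tested 20 of them and called 0 lower and 1 higher (1 and 2 at an unadjusted p below 0.05). GAA, the lysosomal glucosidase that digests glycogen, was 60.8, 58.7 and 55.8 TPM against 68.3, 63.6 and 68.6 TPM, without overlap, and was not called by limma-trend (Benjamini-Hochberg adjusted p = 0.0527). PPP1R3B, which directs a phosphatase to glycogen, fell by 0.34 (SE 0.0905) with overlap of TPM, and its call was lost by limma-trend and without STBD1 WT replicate 1. Of 37 tested autophagy genes 10 were lower and 27 did not pass. OPTN, an autophagy receptor, was 20.5, 19.3 and 20.03 TPM against 34.4, 31.2 and 31.3 TPM. WIPI1, an early autophagy protein, was 16.6, 16.1 and 13 TPM against 20.5, 21.5 and 19.1 TPM. Both separated the groups. GABARAPL1, an ATG8 protein, and SQSTM1, an autophagy receptor, both chosen after their values were seen, fell by 0.28 (SE 0.0649) and 0.28 (SE 0.0362) on counts, and the TPM of both overlapped and limma-trend called neither. Of 32 tested lysosomal genes 8 (25%) were lower, 4 (12.5%) higher and 20 did not pass, the share higher being below background. NPC1, a lysosomal cholesterol transporter, and TFE3, a regulator of lysosomal genes, fell by 0.33 (SE 0.0532) and 0.31 (SE 0.0728). By limma-trend on log2(TPM + 1) 0 lysosomal genes were lower and 0 higher (8 and 2 at an unadjusted p below 0.05), with Benjamini-Hochberg adjusted p = 0.061 for NPC1 and 0.129 for TFE3, and 3 autophagy genes were lower and 1 higher.

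The treatment of the data moved the lists unequally. With the correction for GC content and length the median went from -0.32 to -0.22 for collagens and matrix glycoproteins and from -0.19 to -0.11 for immediate-early genes, while for sterol genes it was -0.27 and -0.27. On log2(TPM + 1) the median of all genes was 0.040. The medians of syndecans and glypicans, keratins, glycogen metabolism, ERK feedback genes, Wnt targets and mitochondrially encoded genes changed sign under at least 1 treatment, so no direction is given for these 6 lists as a whole. By limma-trend 6 syndecans and glypicans, 9 keratins and 20 glycogen genes were tested, against 7, 12 and 23 by edgeR. Its medians for syndecans and glypicans, keratins and ERK feedback genes were 0.046, 0.039 and 0.0069, beside the 0.040 of all genes.

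**Figure D4:**
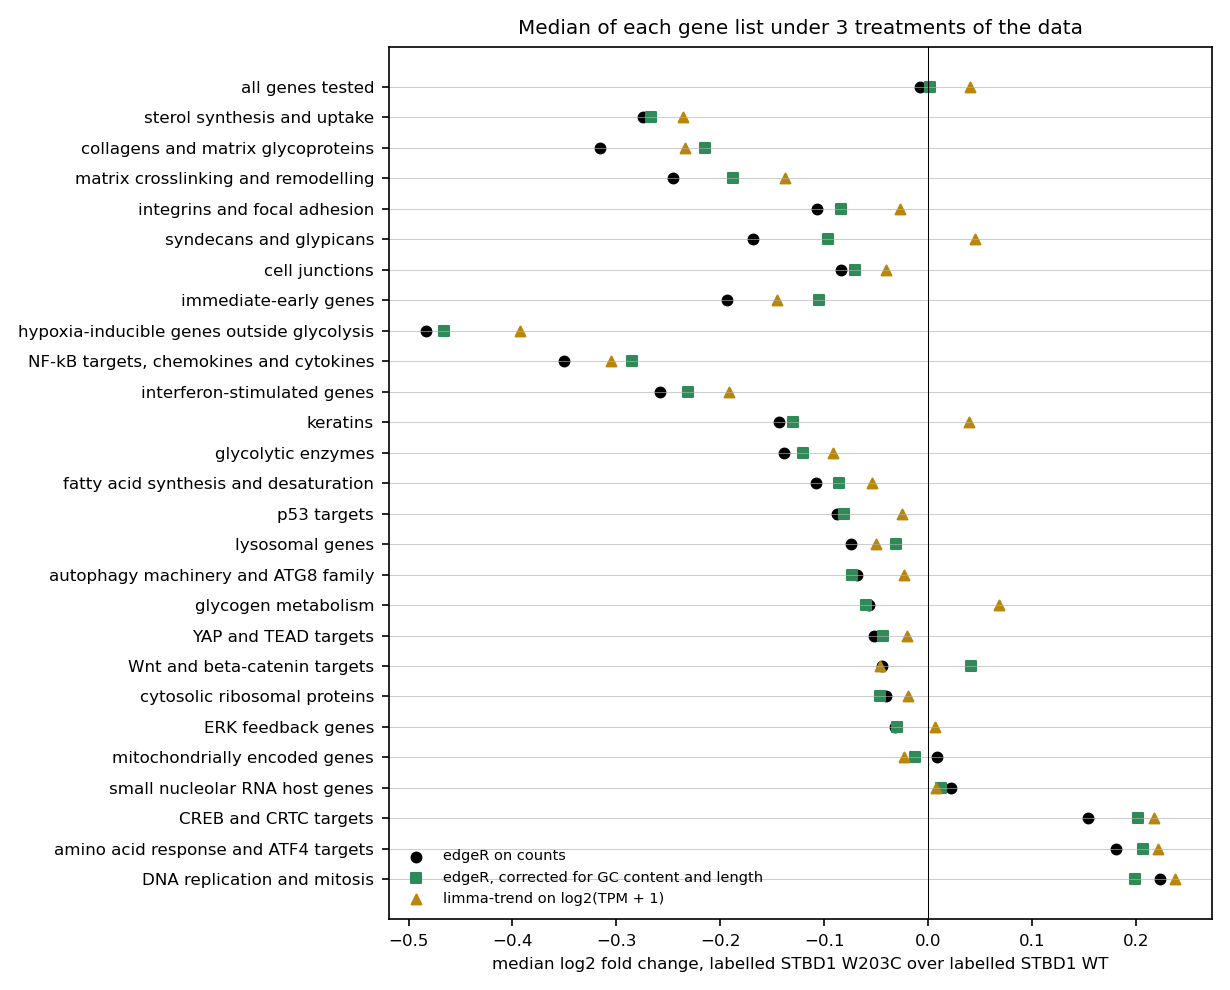
Median log2 fold change, labelled STBD1 W203C over labelled STBD1 WT, of the tested members of each list by edgeR on counts (circles), with a correction for GC content and length (squares) and by limma-trend on log2(TPM + 1) (triangles). The hypoxia, NF-kB, sterol and matrix medians lie below -0.1 and the amino acid, CREB and replication medians above 0.1 under each of the 3, and the syndecan, keratin and glycogen medians lie on both sides of 0.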

How the data were processed

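Total RNA of 9 HCT116 libraries was sequenced as read pairs, and 6 were compared here. Per the labels and the methods of the study, the authors aligned reads to hg38 with STAR 2.7.1a with Ensembl gene models, and RSEM 1.3.1 gave the abundances. The deposited tables hold, per gene, the expected count, which need not be whole because ambiguous reads are divided, and the TPM, scaled by the authors for effective length and library size. Whether counting used strand is not given in the sources used here, so overlapping genes have uncertain levels.

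Of 58395 genes 98.9% had a symbol. Expected counts were rounded, filtered with filterByExpr, normalised by TMM and tested with the two-sided quasi-likelihood F-test of edgeR 4.0.16 in R 4.3.3, with Benjamini-Hochberg adjustment over 15052 genes. The SE is the absolute log2 fold change divided by the square root of F. Alternatives used DESeq2 1.42.0 (the study's tool), limma 3.58.1 on log2(TPM + 1), a GC content and length correction, other scalings and each library left out.

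Members, lists and tests were chosen with earlier results of these data known. Genes were named by rule: STBD1 and FAM47E-STBD1, the 6 largest rises and 6 largest falls with at least 5 CPM and no overlap of CPM, up to 6 changed members of each main list and 2 of each other list with the largest change and at least 1 TPM, and defining members such as ITGB1, CDH1, FOS and EGR1. Some genes that the rule names are not reported here. Genes named outside it are marked as chosen after their values were seen, or are given by name and call alone.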

Additional observations from a re-analysis of the deposited data

How the results depend on the processing

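Of the 86 changed genes named by rule, 56 kept their call in every alternative fit run for them, which did not include the edgeR test against a fold of 1.2, passed by 393 genes. By limma-trend on log2(TPM + 1) the changed genes numbered 1779, with 1241 higher and 538 lower and 163 changed by at least 1.5 times, 27 named genes lost their call, and STBD1 had a log2 fold change of -0.23 (Benjamini-Hochberg adjusted p = 0.145). DESeq2, run on 27338 genes, called 1264 lower and 296 changed by at least 1.5 times, and 5 named genes lost their call. The cause of these differences was not tested. Leaving out 1 library at a time, which also lowers the number of samples, gave 3307 to 3618 changed genes, 1731 to 1945 higher, 1576 to 1673 lower and 390 to 462 changed by at least 1.5 times, with STBD1 at -0.38 to -0.20 on the log2 scale. ITGB1, which was not called, lay between -0.0295 and 0.0213 when 1 library was left out, changing sign to 0.0213, 0.0086 and 0.0192 without STBD1 WT replicate 3, STBD1 W203C replicate 1 and STBD1 W203C replicate 2, to 0.0033 by DESeq2 and to 0.0499 by limma-trend. Same-numbered replicates did not deviate together (correlations across genes of -0.0158, -0.0040 and -0.0074), so the numbers do not pair the libraries. With the replicate block 3662 genes were called, 3634 of them also called without it, and of the named genes SNHG5 lost its call. Of 780 counts of list members under these alternatives, 660 were within 1.5 times the reported count. That number includes counts of 0 that stayed at 0, and most alternatives were further edgeR fits of the same counts. The filter on low counts kept 15052 of 58395 genes, and the others were not tested.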

Other observations

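Keratins and interferon-stimulated genes are among the lists not described so far. Of 12 keratin genes tested 3 (25%) were lower, 0 higher and 9 did not pass. The background was 13.4% lower and 14.5% higher. KRT15, a keratin of basal cells, was 7.84, 11.3 and 8.26 TPM in the libraries labelled STBD1 W203C and 17.9, 14.7 and 16.5 TPM in those labelled STBD1 WT. KRT23, in the same order, was 5.92, 6.98 and 7.11 TPM against 10.97, 11.1 and 9.17 TPM, and neither gene overlapped. Of 24 interferon-stimulated genes tested 10 (41.7%) were lower, 0 higher and 14 did not pass. Their median log2 fold change was -0.26, and limma-trend on log2(TPM + 1) called 3 of them lower. ISG20, an exonuclease, was 4.63, 3.24 and 2.75 TPM against 7.83, 8.12 and 5.98 TPM. IFI6, an interferon-induced membrane protein, was 14.3, 11.1 and 12.9 TPM against 21.6, 17.1 and 20.7 TPM. The groups were separate for both genes.

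Of 11 Wnt targets tested 2 (18.2%) were lower and 1 (9.09%) higher, against backgrounds of 13.4% and 14.5%. NOTUM, a secreted Wnt inhibitor, was 4.02, 5.20 and 4.20 TPM against 6.94, 6.76 and 7.26 TPM, whereas AXIN2, a feedback inhibitor of the same pathway, was 13.7, 13.4 and 12.9 TPM against 9.55, 10.1 and 10.5 TPM, both without overlap. Of 16 YAP and TEAD targets 6 (37.5%) were lower and 2 (12.5%) higher. AMOTL2, an inhibitor of YAP, was 10.97, 13.1 and 9.48 TPM against 9.44, 7.70 and 6.39 TPM. Of 22 p53 targets 7 (31.8%) were lower and 2 (9.09%) higher. In both lists the share higher was below the background of 14.5%. BBC3, a death-promoting BCL2 relative, was 19.3, 17.99 and 19.2 TPM against 24.5, 24.6 and 24.9 TPM. TP53INP1, a stress protein, was 4.21, 4.96 and 4.40 TPM against 5.75, 5.59 and 6.84 TPM. Limma-trend called neither AMOTL2 nor TP53INP1. Of 19 ERK feedback genes 3 (15.8%) were lower and 1 (5.26%) higher, near or below the backgrounds of 13.4% lower and 14.5% higher. Of the ERK feedback genes ETV1 and SPRY4 overlapped in TPM, and their calls were lost by limma-trend and in some of the fits that left out 1 library.

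Of 79 ribosomal protein genes 8 (10.1%) were lower, below the background of 13.4%, and 71 did not pass. The median log2 fold change was -0.040. With the correction for GC content and length 20 (25.3%) were lower, against a background of 12.2% in that fit. RPL31 fell by 0.14 (SE 0.0385) on the log2 scale, and its call was lost without STBD1 WT replicate 2 or STBD1 W203C replicate 2. Of 24 small nucleolar RNA host genes 2 (8.33%), SNHG10 and SNHG5, were higher, below the background of 14.5%, and DESeq2 called neither. Of 13 mitochondrially encoded genes 4 (30.8%) were lower and 2 (15.4%) higher, against backgrounds of 13.4% and 14.5%. MT-ND2 was 4954, 4848 and 4824 TPM against 3398, 4031 and 3693 TPM, and MT-CO2 was 15282, 15534 and 15126 TPM against 16825, 20482 and 18462 TPM, without overlap in either gene and in opposite directions.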
